A study of Rattus norvegicus with 36 samples.

Results

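The type 2 and regulatory CC chemokines analysed here were Ccl17, Ccl22, Ccl1, Ccl11, Ccl24, and Ccl20, the ligands of the receptors Ccr4, Ccr8, Ccr3, and Ccr6. They were chosen by name, as all probes other than controls that carry 1 of these gene names, which gave 6 of 25597 gene names and 9 of 36146 named probes on the array. Expression was measured in the accessory lobe of the lungs of female Sprague Dawley rats aged 13 weeks at instillation. Exposed rats received DQ-12, a ground crystalline silica dust, once at 10 mg per rat in saline, and control rats received the saline vehicle alone. Rats were sampled at 1, 30, or 180 days (D1, D30, D180), with 6 exposed and 6 control rats at each time, and each rat had its own Agilent single-color array (36 arrays). DQ-12 had been re-ground before use, the route was instillation of a single bolus and not inhalation, and only females were used. The accessory lobe is a mixture of cells, so that fewer cells of a type and less RNA per cell cannot be told apart.

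CC chemokines are small secreted proteins that attract leukocytes carrying the matching G protein-coupled receptor. Ccl17 and Ccl22, made mainly by dendritic cells and macrophages, both bind Ccr4, a receptor of type 2 helper T cells and regulatory T cells. Ccl1 binds Ccr8, found on regulatory T cells and on a subset of type 2 helper T cells. Ccl11 and Ccl24, the eotaxins, bind Ccr3 and attract eosinophils, while Ccl20 binds Ccr6, found on interleukin-17 producing T cells, B cells, and dendritic cells. Signaling by interleukin 4 and interleukin 13 through Stat6 is a known inducer of Ccl17, Ccl22, Ccl11, and Ccl24, and NF-kB is a known inducer of Ccl20 and Ccl22.

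The probes decide which part of each transcript was read, and their sequences are shown for the genes in which this matters (5′ to 3′, from the array files). For Ccl17 and Ccl1, each measured by 1 probe of 60 bases, the whole probe is given, with the closing TGA triplet of the Ccl17 probe in capitals.
Ccl17 probe: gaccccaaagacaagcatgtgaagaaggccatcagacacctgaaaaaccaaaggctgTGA
Ccl1 probe: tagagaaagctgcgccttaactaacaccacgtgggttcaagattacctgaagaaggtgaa
The files place the Ccl17 probe on the minus strand at chr19:10641376-10641435 and the Ccl1 probe on the minus strand at chr10:70380681-70380740. Their headers name the build rn4, which was not checked against a genome. The probes of Ccl17 and Ccl22 lay 55883 bases apart on chromosome 19 in the same coordinates.

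Ccl22 had 3 probes but only 2 different sequences, of which the last 30 bases are shown because the probes gave unequal changes. Probe 1 (A_44_P1160818), the brightest, ended in a run of A, in capitals, and started 305 bases downstream of probes 2 and 3 (A_44_P1159750 and A_64_P157748), which share 1 sequence.
Ccl22 probe 1: gaaaataaatgctcgtcaatagtgAAAAAA
Ccl22 probes 2 and 3: acaacagtgccccagggtggggaaataaat
Ccl20 had 2 probes that overlapped by 59 bases and differed there by 1 substitution, A10G, with positions counted from 1 at the 5′ end of probe 2 (A_64_P157743) and the base of probe 1 (A_44_P1160109) given last. Their first 30 bases are shown with this base in capitals.
Ccl20 probe 2: cgcttagtaAaaggttcaatattatgttta
Ccl20 probe 1: gcttagtaGaaggttcaatattatgtttaa
Ccl11 and Ccl24 each had 1 probe.

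Signals are given on the log2 scale after quantile normalization, and each gene is represented by its brightest probe unless stated otherwise. Across the 36 arrays, 51.4 to 75.5% of probes were well above background by the image analysis software, and arrays of the same group correlated with median r of 0.973 to 0.981. Ccl17, Ccl22, Ccl11, Ccl24, and Ccl20 were well above background on all 36 arrays, whereas Ccl1 was on 15, all of them from exposed rats. A gene was called when the adjusted p (limma, Benjamini–Hochberg over 23940 genes) was under 0.05 and the change was at least 2-fold. By this rule 3 of the 6 genes, Ccl17, Ccl22, and Ccl1, were called at every time point, all higher in exposed rats. This rule took 3.07% of all tested genes at the first time, 1.05% at the second, and 3.63% at the last, and it took 2.02%, 0.915%, and 2.86% as higher. Ccl11, Ccl24, and Ccl20 were called at none of the 3 times. At the 3 times, the 6 genes had a median log2 change of 0.99, 0.88, and 1.1, against -0.01, -0.02, and -0.03 over all genes.

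**Figure D1:**
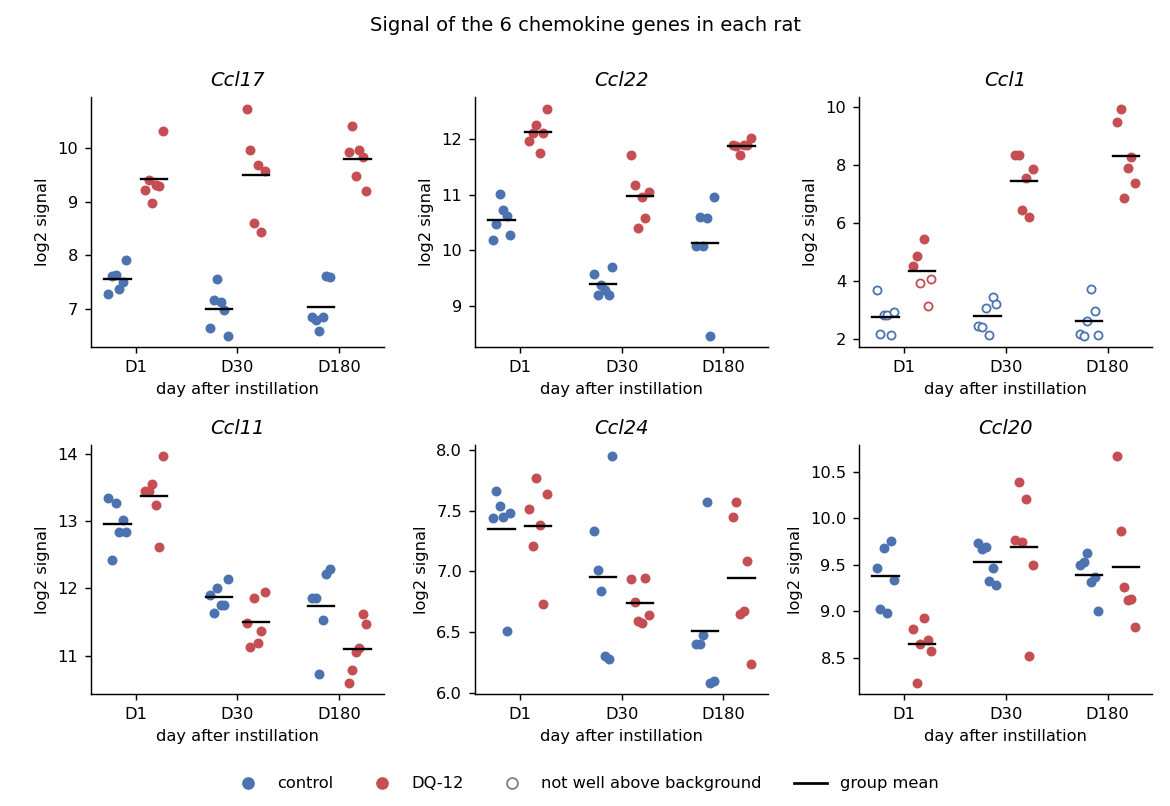
Log2 signal (vertical axis) of each chemokine gene in each rat at D1, D30, and D180 (horizontal axis), in control rats (blue) and DQ-12 rats (red), with open symbols for signals not well above background and bars for group means. The exposed rats lie above all controls at every time for Ccl17 and Ccl22 and at D30 and D180 for Ccl1, and the groups overlap for Ccl24 at every time.

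Among the Ccr4 ligands, Ccl17 rose 3.66-fold at D1, 5.67-fold at D30, and 6.77-fold at D180. At D1, controls ran from 7.27 through a median of 7.55 to 7.90, and exposed rats from 8.98 through 9.30 to 10.31. At D30, controls ran from 6.50 through 7.05 to 7.55 and exposed rats from 8.43 through 9.63 to 10.74. At D180, controls ran from 6.58 through 6.84 to 7.60 and exposed rats from 9.20 through 9.88 to 10.40. All 6 exposed rats were above all 6 controls at each time, a separation in that direction that 5.25%, 1.81%, and 3.85% of all genes showed at D1, D30, and D180. The log2 changes were 1.87 ± 0.28 (SE, n = 6 per group, adjusted p = 1.64e-05), 2.50 ± 0.28 (adjusted p = 4.37e-07), and 2.76 ± 0.28 (adjusted p = 1.29e-08). The exact permutation p over the 924 splits of 12 rats was 0.00216 at each time, the smallest 2-sided value these groups can give. The difference between the changes at D180 and D1 was 0.89 (95% CI 0.07 to 1.71), and it did not pass the test (adjusted p = 0.219).

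Ccl22, the other Ccr4 ligand, rose 2.98-fold, 3.02-fold, and 3.38-fold at the 3 times by its brightest probe. At D1, controls ran from 10.19 through a median of 10.54 to 11.01 and exposed rats from 11.75 through 12.11 to 12.55. At D30, the ranges were 9.19 to 9.70 (median 9.33) in controls and 10.41 to 11.72 (median 11.00) in exposed rats. At D180, they were 8.46 to 10.95 (median 10.33) and 11.72 to 12.02 (median 11.89). The groups did not overlap at any of the 3 times (exact permutation p = 0.00216 each, n = 6 per group). The log2 changes were 1.58 ± 0.25 (SE, adjusted p = 3.78e-05), 1.59 ± 0.25 (adjusted p = 0.00012), and 1.76 ± 0.25 (adjusted p = 4.92e-06). Between D30 and D1 the change differed by 0.02 (95% CI -0.71 to 0.75), and between D180 and D1 by 0.18 (95% CI -0.55 to 0.91). The signal of Ccl22 was lower at D30 than at D1 by 1.16 in controls and by 1.14 in exposed rats, and different times were hybridized on different slides.

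The size of the Ccl22 change depended on the probe. Probes 2 and 3, the identical sequences upstream, gave log2 changes of 2.73 and 2.72 at D1, 2.20 and 2.27 at D30, and 2.75 and 2.61 at D180, which is a 4.59-fold to 6.73-fold rise. Within each array, the change of probe 2 exceeded that of probe 1 by 1.15 at D1, 0.60 at D30, and 0.99 at D180. In 12 such comparisons between probes of 1 gene, these differences had exact permutation p of 0.00216, 0.00216, and 0.0152 (n = 6 per group; adjusted 0.00648, 0.00648, and 0.0365). For probe 3 against probe 1, the corresponding differences were 1.14, 0.67, and 0.85 (exact permutation p = 0.00216, 0.00216, and 0.0368; adjusted 0.00648, 0.00648, and 0.0736, n = 6). Probes 2 and 3, set against each other, differed in their change by at most 0.14 (adjusted exact permutation p from 0.283 to 0.905, n = 6) and correlated across the 36 arrays with r = 0.98. The single low control at D180 on probe 1, replicate 5 at 8.46, read 5.81 on probe 2 and 6.09 on probe 3, the lowest control on each of these too, but by less. Whether Ccl17 or Ccl22 had the larger fold at D1 therefore depended on the Ccl22 probe, 3.66-fold for Ccl17 against 2.98-fold, 6.63-fold, and 6.58-fold for the 3 probes.

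**Figure D2:**
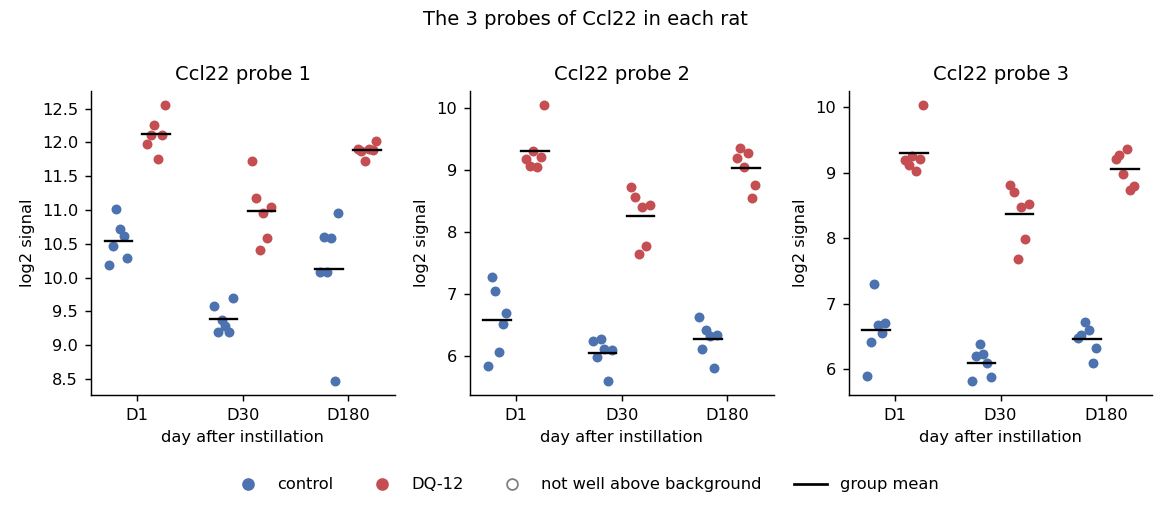
Log2 signal (vertical axis) of the 3 probes of Ccl22 in each rat at D1, D30, and D180 (horizontal axis), in control rats (blue) and DQ-12 rats (red), with bars for group means. Exposed rats lie above all controls on every probe, by a mean of 1.58 at D1 on probe 1 and of 2.73 and 2.72 on probes 2 and 3, which share 1 sequence.

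Ccl1, the Ccr8 ligand, rose at all 3 times, and most at the later ones. No control array at any time was well above background, so folds are approximate lower bounds. They set the mean of all 6 exposed arrays, well above background or not, against a floor on each control array. The floor was the lowest signal of any probe well above background there, or the Ccl1 signal where that was higher. The highest signal that was not well above background was not used, so the bounds are not strict. At D1, controls ran from 2.16 through a median of 2.84 to 3.71 and exposed rats from 3.16 through 4.30 to 5.46. Only 3 of the 6 exposed arrays were then well above background, and 5 of 6 exposed rats were above all controls. At D30, controls ran from 2.15 through 2.78 to 3.46 and exposed rats from 6.23 through 7.70 to 8.36. At D180, controls ran from 2.13 through 2.42 to 3.74 and exposed rats from 6.87 through 8.07 to 9.94. At both later times all 6 exposed arrays were well above background and above every control.

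The rise of Ccl1 was at least 1.99-fold at D1 (fitted log2 change 1.56 ± 0.45 SE, adjusted p = 0.016, exact permutation p = 0.00433, n = 6 per group). It was at least 13.8-fold at D30 (4.66 ± 0.45, adjusted p = 2.37e-08) and at least 26.0-fold at D180 (5.66 ± 0.45, adjusted p = 6.09e-11). The change was larger than at D1 by 3.10 at D30 (95% CI 1.80 to 4.41, adjusted p = 0.0064) and by 4.10 at D180 (95% CI 2.80 to 5.41, adjusted p = 0.000175). With slide and scan date as fixed blocks neither difference was called, at 3.25 and 2.97 for D30 (adjusted p = 0.294 and 0.516) and 4.46 and 4.47 for D180 (adjusted p = 0.165 and 0.056). With scan date as a random block, only that of D180 was (2.99 for D30, adjusted p = 0.0584). The difference between D180 and D30 was 1.00 (95% CI -0.30 to 2.31, adjusted p = 0.573). The call at D1 was lost with other background corrections or scalings, where the change was 0.28 (normexp), 0.44 (no background correction), or 1.27 (75th percentile scaling), and with slide and scan date as random blocks at a change of 1.55 each (adjusted p = 0.0504 and 0.105). Over all alternatives the fitted change ranged from 1.80 to 4.98 at D30 and from 2.39 to 5.96 at D180 and was called under each, so that the bounds hold for the normalization used here and not for every background correction.

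Exposed rats at D30 varied in all 3 of these genes, and the same rats were low in each. Replicates 3 and 5 were the lowest for Ccl17 (8.60 and 8.43), for Ccl22 (10.41 and 10.59), and for Ccl1 (6.45 and 6.23), while replicates 1 and 2 were the highest for each. Replicate 5 was also the only exposed array at D30 that was scanned on the date of 4 of the controls. Within groups over all 36 arrays, deviations from the group mean correlated with r = 0.44 for Ccl17 and Ccl1, 0.20 for Ccl17 and Ccl22, and 0.04 for Ccl22 and Ccl1. These correlations describe 36 arrays that share slides and scan dates.

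The eotaxins did not pass the rule. Ccl11 had log2 changes of 0.42 ± 0.22 (SE, adjusted p = 0.215) at D1, -0.37 ± 0.22 (adjusted p = 0.451) at D30, and -0.64 ± 0.22 (adjusted p = 0.0458) at D180. The last of these passed the p threshold at a 1.56-fold lower signal, short of the 2-fold limit, and 16.8% of all genes passed it at that time. Its adjusted p ranged from 0.0304 to 0.531 over the processing alternatives, with 0.531 and 0.212 for slide and scan date as fixed blocks, and from 0.00402 to 0.125 when 1 rat was left out. At D1, controls ran from 12.42 through a median of 12.93 to 13.35 and exposed rats from 12.62 through 13.45 to 13.97, with 4 exposed rats above all controls. At D30, controls ran from 11.64 through 11.83 to 12.14 and exposed rats from 11.13 through 11.43 to 11.94, with 4 exposed rats below all controls. At D180, controls ran from 10.73 through 11.86 to 12.29 and exposed rats from 10.59 through 11.09 to 11.62, and the groups overlapped (exact permutation p = 0.0563, n = 6).

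The change of Ccl11 at D180 differed from that at D1 by -1.06 (95% CI -1.71 to -0.42, adjusted p = 0.0473), and this difference was called. The call was lost in 26 of 36 fits that left out 1 rat (adjusted p from 0.00899 to 0.0885) and in 7 of 15 other settings (adjusted p from 0.0298 to 0.782). These included slide and scan date as fixed blocks, where the difference was -0.93 and -0.59 (adjusted p = 0.782 and 0.683). It was the only called difference between times beside those of Ccl1. For the 6 genes there was 1 called difference between D30 and D1, 0 between D180 and D30 by limma (0 of 6 also at an unadjusted p under 0.05), and 2 between D180 and D1. The shares of all genes called in these comparisons were 0.944%, 0.138%, and 1.55%. The Ccl11 signal itself was higher at D1 than later in both groups, by 1.09 over D30 and 1.21 over D180 in controls, a comparison in which time and slide cannot be told apart.

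Ccl24 had log2 changes of 0.03 ± 0.26 at D1 (SE, 95% CI -0.51 to 0.57), -0.21 ± 0.26 at D30 (95% CI -0.75 to 0.33), and 0.44 ± 0.26 at D180 (95% CI -0.10 to 0.98). The adjusted p were 0.963, 0.811, and 0.296, and the intervals leave out a 2-fold change in either direction. At D180 the upper limit came close to a 2-fold rise, and the change ran from 0.31 to 0.65 with 1 rat left out. Signals ran from 6.50 to 7.66 (median 7.46) in controls and 6.73 to 7.77 (median 7.45) in exposed rats at D1. They were 6.27 to 7.95 (median 6.93) and 6.57 to 6.94 (median 6.69) at D30, when the exposed rats all lay within the range of the controls. At D180 they were 6.08 to 7.57 (median 6.40) and 6.24 to 7.57 (median 6.88), where 1 control, replicate 4 at 7.57, lay far above the other controls.

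Ccl20, the Ccr6 ligand, was lower at D1 in all 6 exposed rats than in any control. Controls ran from 8.98 through a median of 9.40 to 9.75 and exposed rats from 8.23 through 8.67 to 8.93. The log2 change was -0.73 ± 0.25 (SE, adjusted p = 0.0394, exact permutation p = 0.00216, n = 6 per group), a 1.66-fold lower signal, which is short of the 2-fold limit. Of all genes, 5.97% had exposed rats below all controls at D1, and 16.2% passed the p threshold alone in either direction. Probe 2, with its single-base difference, gave -0.71 at D1 (adjusted p = 0.0783) with 4 of 6 exposed rats below all controls. The adjusted p for Ccl20 at D1 ranged from 0.0107 to 0.278 over the processing alternatives and from 0.0161 to 0.105 when 1 rat was left out.

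At D30 the exposed rats fell on both sides of the controls for Ccl20. Controls ran from 9.28 through 9.57 to 9.73 and exposed rats from 8.52 through 9.75 to 10.38, with 4 above all controls and 1, replicate 5, below. The log2 change was 0.16 (95% CI -0.35 to 0.66, adjusted p = 0.87), and 0.39 without replicate 5. At D180, controls ran from 9.0 through 9.44 to 9.62 and exposed rats from 8.83 through 9.20 to 10.67, and the change was 0.09 (95% CI -0.41 to 0.59, adjusted p = 0.873). Without exposed replicate 1, the highest rat at D180, it was -0.15. The changes at D30 and D180 differed from that at D1 by 0.89 and 0.82, and neither difference passed the test (adjusted p = 0.189 and 0.184).

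**Figure D3:**
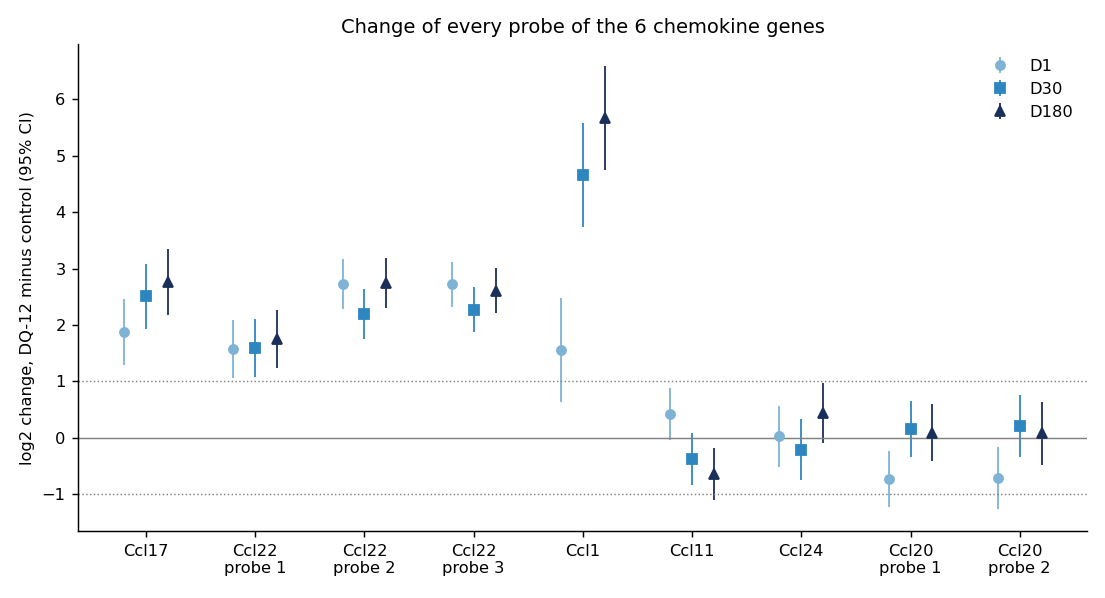
Log2 change, DQ-12 minus control (vertical axis, points with 95% CI), of all 9 probes of the 6 chemokine genes (horizontal axis) at D1 (circles), D30 (squares), and D180 (triangles), with dotted lines at a 2-fold change. All probes of Ccl17, Ccl22, and Ccl1 lie above 1 at each time, with Ccl1 drawn as fitted against controls that were at background, and no probe of Ccl11, Ccl24, or Ccl20 reaches a 2-fold change.

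Slide and scan date, as the array files give them, were unevenly spread over the groups. At D1, all 6 exposed arrays shared a scan date with 1 control, and the other 5 controls were scanned on dates with no exposed array. A single slide held both groups at D1, with 1 control and 4 exposed arrays. Within the shared scan date, with all 6 exposed arrays against 1 control, the changes at D1 were 1.79 for Ccl17, 1.11 for Ccl22, and 1.49 for Ccl1. They were 0.11 for Ccl11, -0.16 for Ccl24, and -1.04 for Ccl20. With scan date as a fixed block, the adjusted p at D1 were 0.0772 for Ccl17, 0.094 for Ccl22, and 0.55 for Ccl1, so that 0 of the 6 genes were called at D1 by limma (slide as a block also gave 0). Over all 23940 genes, scan date as a block called 131 higher and 45 lower at D1, and slide 127 and 72. Without a block, 736 were called, 484 of them higher. At an unadjusted p under 0.05, 3 of the 6 genes, Ccl17, Ccl22, and Ccl20, passed at D1 with either block. The share of all genes at this measure was not counted.

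At D30, the 2 scan dates gave changes of 1.60 and 2.38 for Ccl17, 1.17 and 1.73 for Ccl22, and 3.33 and 5.10 for Ccl1. The lower value of each pair came from the date with 1 exposed array, replicate 5, and 4 controls. For Ccl20 these dates gave -1.02 and 0.41, and for Ccl11 -0.49 and -0.36. At D180, the date with 3 exposed and 3 control arrays gave 3.19 for Ccl17, 1.58 for Ccl22, 5.90 for Ccl1, -0.56 for Ccl11, 0.41 for Ccl24, and 0.46 for Ccl20. Ccl17, Ccl22, and Ccl1 kept their calls at both later times with scan date as a fixed block. When slide was the fixed block, Ccl22 was not called at D180 (1.32, adjusted p = 0.105), where a single slide held both groups, with 1 array of each, and the other 5 calls at D30 and D180 remained.

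**Figure D4:**
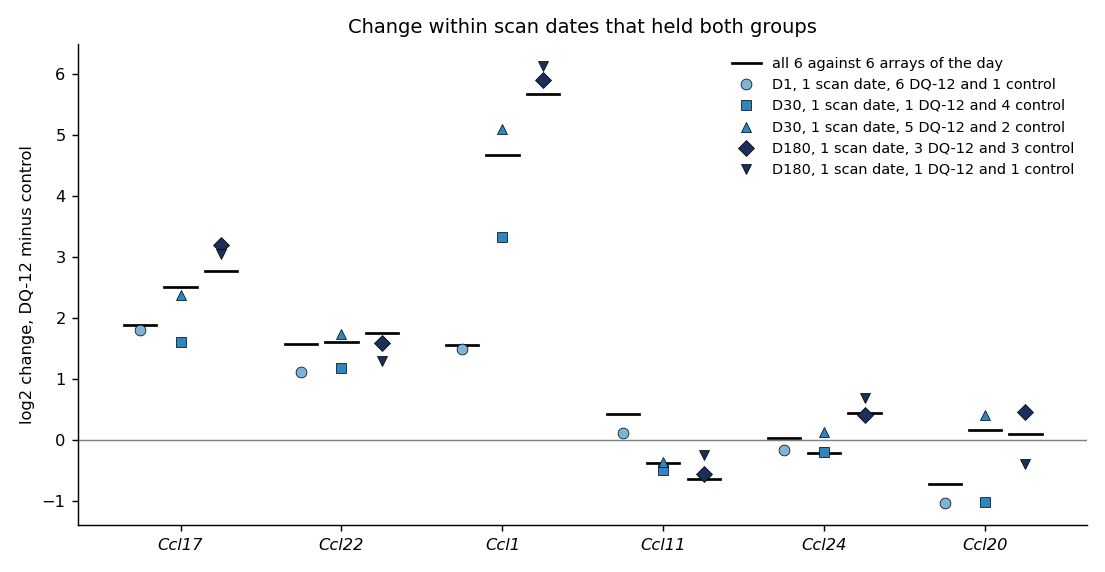
Log2 change, DQ-12 minus control (vertical axis), of the 6 chemokine genes (horizontal axis) within each scan date that held both groups (symbols), beside the change over all 6 exposed and 6 control arrays of that time (bars). Values for Ccl17, Ccl22, and Ccl1 lie above 0 within all 5 dates, from 1.11 for Ccl22 at D1 to 6.13 for Ccl1 at D180, whose controls were at background, and those for Ccl20 at D30 lie on either side of 0.

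The receptors were called at none of the 3 times. Ccr4, the receptor of Ccl17 and Ccl22, was well above background on 1 of 36 arrays, from an exposed rat at D30. Its signal had a median of 1.94 in controls and 2.98 in exposed rats at D30 and of 1.95 and 2.51 at D180, and the changes were 0.84 (adjusted p = 0.0845) and 0.73 (adjusted p = 0.0686), with 4 of 6 exposed rats above all controls each time. Ccr8, the receptor of Ccl1, was well above background on 3 of 36 arrays, all from control rats, with changes of -0.24, -0.52, and 0.22 at D1, D30, and D180 (SE 0.53). Levels this near background do not allow a fold to be given for either receptor.

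Ccr3, the eotaxin receptor, was well above background on all arrays by its brightest probe, with changes of 0.07, -0.07, and -0.35 (adjusted p from 0.426 to 0.963). On that probe the exposed rats at D1 spread from 7.77 to 10.15 around controls of 8.27 to 8.65, with 2 above and 4 below all controls. The other Ccr3 probe was well above background on 16 of 36 arrays, with changes of 0.68, 0.62, and -0.33, none called. Ccr6, the receptor of Ccl20, had changes of -0.20, 0.31, and 0.29 (adjusted p from 0.341 to 0.51). Its other probe gave -0.51, 0.19, and 0.37, none called. At D1 the highest control read 10.03 on that probe, and the medians were 7.29 in controls and 7.22 in exposed rats. Of the genes that remove or trim chemokines, Dpp4, a peptidase that shortens Ccl22 and Ccl11, was lower at D1 (-0.70, adjusted p = 0.000131) and D180 (-0.45, adjusted p = 0.00842), short of 2-fold each time. Of all genes, 16.2% and 16.8% passed the p threshold alone at these times. All 6 exposed rats were below every control for Dpp4 at D1, which 5.97% of all genes showed. The scavenging receptors Ackr1 and Ackr2 were not called.

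The type 2 cytokines that induce several of these ligands were not called higher. Of 13 genes for type 2 cytokines and their signaling, 0 were called at D1 and D30 by limma (0 also by adjusted p alone, and 1 and 2 at an unadjusted p under 0.05), and 2 were called lower at D180. These were Il5, the eosinophil growth factor (-1.74 ± 0.54 SE, adjusted p = 0.0213, well above background in 5 controls and 3 exposed rats), and Il25, an epithelial cytokine (-1.25 ± 0.34, adjusted p = 0.00896). No exposed array at D180 was well above background for Il25, so it was at least 1.68-fold lower. By limma adjusted p alone, 3 of the 13 genes were lower at D180, the third being Il33. Of all genes, 16.8% passed that threshold in either direction. Il4 was well above background in 1 control and 1 exposed rat at D180, and Il13 in 1 and 4. The median change of the list was 0.13, -0.10, and -0.16 on the log2 scale at the 3 times, against -0.01, -0.02, and -0.03 over all genes.

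Among 7 genes of alternative macrophage activation, 1 was called higher at D1 and 3 at each later time. Retnla, a secreted protein induced by type 2 cytokines, rose 6.05-fold, 7.56-fold, and 15.1-fold. Chia, a chitinase, rose 4.24-fold at D30 and 13.8-fold at D180, and Arg1, the arginine-degrading enzyme, 3.26-fold and 2.46-fold. Mrc1, Cd163, Clec10a, and Tgm2 were not called at any time. By limma adjusted p alone, Cd163 at D180 (-0.89, adjusted p = 0.00191) and Tgm2 at D1 (-0.40, adjusted p = 0.0417) were lower. Chia at D1 (0.97, adjusted p = 0.0102) and Clec10a at D180 (0.54, adjusted p = 0.0431) were higher by the same measure. At the 3 times, the list had a median log2 change of 0.18, 0.35, and 0.54.

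Of 10 genes of regulatory T cells, 0 were called at D1 by limma (2 passed by adjusted p alone and 3 at an unadjusted p under 0.05), 1 at D30, and 4 at D180. Icos, a T cell costimulator, rose 2.08-fold at D30 and 2.62-fold at D180. At D180, Foxp3, the defining transcription factor, rose 3.58-fold (1.84 ± 0.45 SE, adjusted p = 0.00358), with 3 controls and 5 exposed rats well above background. Il2ra, the interleukin 2 receptor chain, rose 2.57-fold and Tnfrsf4, a costimulatory receptor, 2.92-fold at D180. In all 4 genes called at D180 every exposed rat was above every control, which 3.85% of all genes showed at that time. The median change of the list was 0.13, 0.24, and 0.69 at the 3 times. None of 5 general T cell markers was called, and the mean level of that list ran from 9.46 to 10.12 in controls and 9.70 to 10.51 in exposed rats at D180. By limma adjusted p alone, Cd4 of that list was higher at D180 (0.40, adjusted p = 0.048). Of all genes, 16.8% passed that threshold in either direction. In the interleukin-17 axis, 1 of 8 genes was called, Il17a at D180, which rose at least 1.71-fold, with 0 controls and 3 exposed rats well above background (1.59 ± 0.34, adjusted p = 0.000766).

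Of 13 other CC chemokines, 4, 5, and 6 were called higher at D1, D30, and D180, and 0 were called lower. The largest changes were in the monocyte attractants Ccl7 (6.85-fold, 10.1-fold, and 27.8-fold), Ccl2 (5.89-fold, 6.94-fold, and 23.3-fold), and Ccl12 (3.66-fold, 5.79-fold, and 12.4-fold). Ccl3 rose 2.13-fold, 2.48-fold, and 3.97-fold. Ccl9 at D30 and D180 and Ccl19 at D180 made up the remaining calls. Of 6 other CC chemokine receptors, Ccr1 was called at D1 (2.20-fold) and at D180 (2.70-fold), and Ccr10, found on skin- and mucosa-homing lymphocytes, at D180 (2.10-fold).

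**Figure D5:**
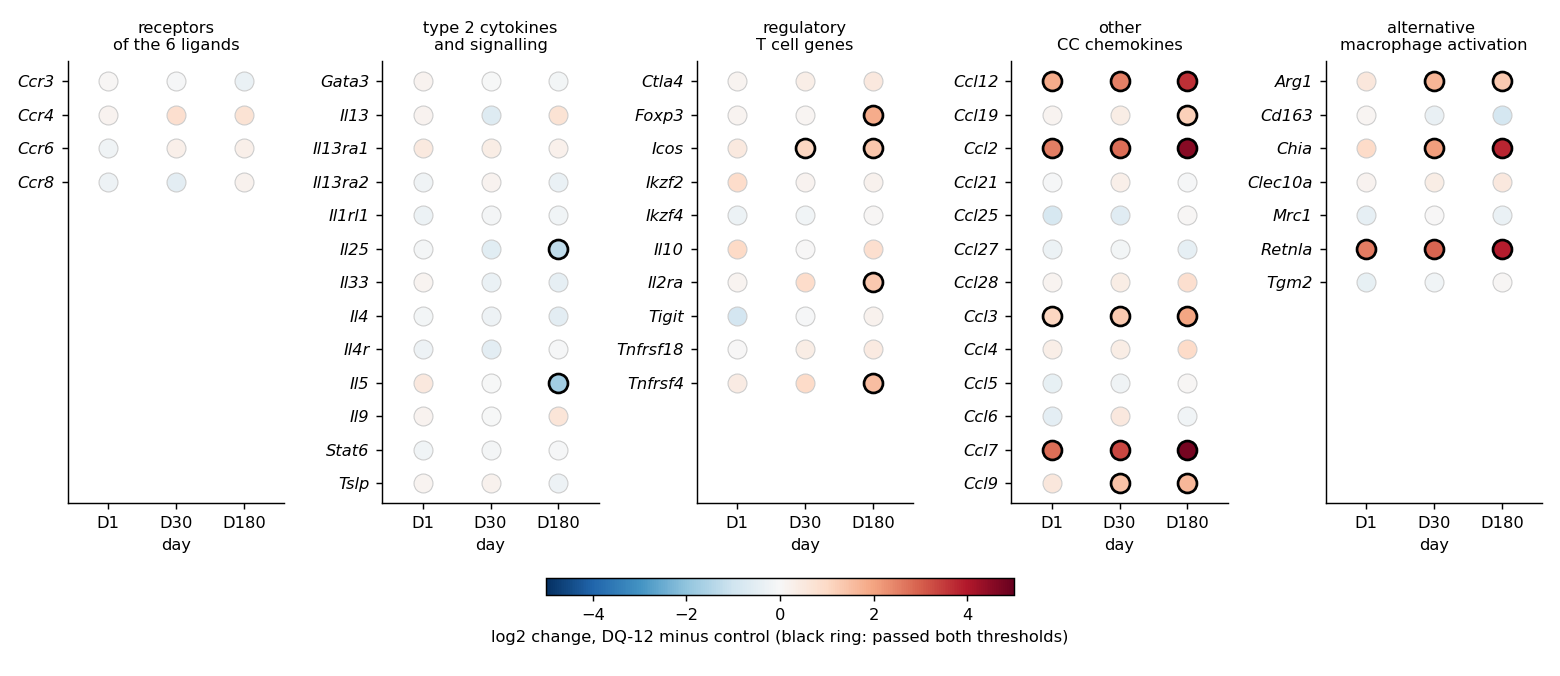
Log2 change, DQ-12 minus control (color, from blue for lower to red for higher), of the genes in 5 lists (rows) at D1, D30, and D180 (columns), with a black ring where both thresholds were passed. No receptor of the 6 chemokines carries a ring, 4 genes of regulatory T cells do at D180, and 6 of 13 other CC chemokines do at D180.

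Markers of other cells moved with exposure beside these chemokines. Of 5 neutrophil markers, 1, 2, and 4 passed as higher at the 3 times, and the mean level of the list at D180 was 8.23 to 9.08 in controls and 9.56 to 10.62 in exposed rats. At D180, S100a9 rose 5.93-fold, S100a8 2.95-fold, Cxcr2 2.93-fold, and Csf3r 2.16-fold, while Mpo was not called at any time. The fitted change of Mpo at D1 was 2.08 ± 0.75 (SE, limma adjusted p = 0.054), with 0 controls and 2 exposed rats well above background. Of 6 macrophage markers, 0, 2, and 3 passed at D1, D30, and D180 by limma (2 at D1 at an unadjusted p under 0.05), with a mean level at D180 of 10.02 to 10.42 in controls and 11.13 to 11.50 in exposed rats. Cd68 rose 2.93-fold and Itgam 4.55-fold at D180. Marco rose 6.14-fold at D180, with 2 controls and 6 exposed rats well above background. Adgre1, Csf1r, and Lyz2 were not called at any time. At D1 the macrophage list was at 10.06 to 10.45 (median 10.17) in controls and 10.34 to 10.46 (median 10.40) in exposed rats. Of its genes, only Itgam passed by limma adjusted p alone at that time (0.96, adjusted p = 0.0125). Of 5 dendritic cell markers, 4 B cell markers, 4 mast cell markers, 7 lung epithelial, 4 endothelial, and 4 fibroblast markers, none was called with the 2-fold limit at any time, but several passed by adjusted p alone. At D180 all 4 endothelial markers passed as lower, from Pecam1 (-0.46, adjusted p = 0.00767) and Vwf (-0.49, adjusted p = 0.0149) to Cdh5 (-0.58, adjusted p = 0.00277) and Cldn5 (-0.90, adjusted p = 0.00226), and the mean level of the list was 13.66 to 13.83 in controls and 13.00 to 13.34 in exposed rats. Of the mast cell markers at D180, Cpa3, a granule protease (1.87-fold, adjusted p = 0.0162), and Fcer1a, the immunoglobulin E receptor chain (1.69-fold, adjusted p = 0.0365), passed as higher and Kit, the stem cell factor receptor, as lower (-0.69, adjusted p = 0.000624). Of the dendritic cell markers at D180, Batf3 (1.53-fold) and Flt3 (1.40-fold) passed as higher and Zbtb46 as lower (-0.56). Itgax was 1.90-fold (adjusted p = 0.0504), with every exposed rat above all controls, which 3.85% of all genes showed at D180. Of the lung epithelial markers at D180, 1 passed as higher and 2 as lower, and no B cell or fibroblast marker passed at any time. The part of these cells in the changes of the chemokines was not tested.

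Of 4 eosinophil markers, 2 passed the filter on low values and none was called. The defining eosinophil peroxidase gene Epx was well above background on 0 arrays at D1 and D180 and in 2 controls and 1 exposed rat at D30. Prg2, a granule protein, was above background on all arrays with changes of 0.03, -0.13, and 0.39 (adjusted p = 0.946, 0.824, and 0.126).

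The genes with signals most like those of each chemokine were taken from 17464 genes well above background on at least 18 of the 36 arrays. For Ccl17 they were Ccl7 (Pearson r = 0.94 over 36 arrays, 0.66 for deviations from the group means), the complement component C3 (0.93 and 0.50), and Ccl2 (0.93 and 0.46). For Ccl22 they were Aldh1l2 (0.90 and 0.68), Tacc3 (0.88 and 0.50), and Exo1 (0.87 and 0.46), a mitochondrial folate enzyme, a spindle protein, and a DNA exonuclease. For Ccl24 the first was Tmem88b, with r = 0.83 both over all arrays and within groups, followed by LOC102547448 (0.82 and 0.76) and Adgrg5 (0.81 and 0.76). For Ccl11 the first was Col6a1, a collagen VI chain (0.82 and 0.14), and for Ccl20 it was Kpna1, a nuclear import receptor (0.78 and 0.68). Ccl1 was above background on too few arrays for this. These r are descriptions, since the arrays share groups, slides, and scan dates.

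Upstream sequence was available in RefSeq (GRCr8) for 5 of the 6 genes, all but Ccl11. The 250 bases before the transcription start were searched on both strands for TTC and GAA with 4 bases between them, the letters of a Stat6 site, for GGG and CC with 5 bases between them, a loose form of the NF-kB site, and for TGANTCA, the AP-1 site. Of 33465 rat promoters of this length, 6.25%, 42.3%, and 6.34% held them. Ccl17 held 1 match to the Stat6 letters, at -68 to -59 from the start, and Ccl22 held 2 to the NF-kB letters, at -173 to -164 and -142 to -133. Both sequences are printed with the matches in capitals, because these are the 2 Ccr4 ligands that rose together.
Ccl17 (chr19:10209896-10210145, minus strand, GRCr8): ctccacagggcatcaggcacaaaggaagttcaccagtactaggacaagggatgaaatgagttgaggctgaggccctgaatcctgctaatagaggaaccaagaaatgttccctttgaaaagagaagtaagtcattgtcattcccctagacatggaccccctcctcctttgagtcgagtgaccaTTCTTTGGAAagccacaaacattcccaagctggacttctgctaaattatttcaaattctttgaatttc
Ccl22 (chr19:10270360-10270609, minus strand, GRCr8): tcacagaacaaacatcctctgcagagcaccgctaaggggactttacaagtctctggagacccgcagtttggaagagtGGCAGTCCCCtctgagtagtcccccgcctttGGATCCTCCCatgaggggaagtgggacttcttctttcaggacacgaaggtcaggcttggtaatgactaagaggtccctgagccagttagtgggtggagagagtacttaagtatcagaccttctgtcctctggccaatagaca
Ccl20, which did not rise, held 4 matches to the NF-kB letters, 3 of them overlapping, Ccl24 held 1, and Ccl1 held no match to any of the 3. A match describes the letters in the window and not binding by the factor.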

How the data were processed

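Lung RNA of 36 rats was hybridized by the authors to 1 single-color Agilent array per rat. The deposited scanner files hold spot intensity before and after background correction from Feature Extraction 12.0.1.1. The authors also deposited log2 values, which matched corrected intensity scaled by each array's 75th percentile and then centered on every probe's median (r = 0.99995, median absolute difference 0.00119). These served as an alternative.

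Here, log2 corrected intensities were used without spots marked as outliers (232 to 596 per array), spots of a probe were averaged, and probes above the 95th percentile of 308 negative controls on at least 6 arrays were quantile normalized. The brightest of several probes represented a gene. A model of 6 group means on all 36 arrays was fitted in limma 3.58.1 (R 4.3.3), with Benjamini–Hochberg adjustment within each comparison over 23940 genes. The rule for a call (adjusted p under 0.05, 2-fold) followed the study's methods. The number of arrays limits the precision. The exact permutation tests were 2-sided. Probes of 1 gene were compared after their values were seen. The model was tested on simulated data.

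The 6 genes and all lists were chosen with earlier results of these data known. All probes of the 6 genes and 4 receptors, up to 4 called genes per list with the largest change, and the 3 most similar genes were to be named. Other genes in the text were named after their values were seen. Alternatives changed intensity column, background correction, scaling, filter, outlier spots, probe summary, model, blocks, and thresholds, and left out each rat. Figures used Python and matplotlib.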

Additional observations from a re-analysis of the deposited data

Results flagged for a closer look

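In 36 tests of single samples (6 genes in 6 groups), 4 stood apart from the other rats of the group by Dixon's criterion at the 95% level, which chance alone passes now and then (about 5% of groups). The gap to the nearest rat was 0.681 of the group's range for the highest exposed rat at D1 for Ccl17. It was 0.649 for the lowest control at D180 for Ccl22, 0.809 for the lowest control at D1 for Ccl24, and 0.735 for the highest control at D180 for Ccl24. The changes that differed between times were those of Ccl1 between D30 and D1 (3.10) and between D180 and D1 (4.10), and that of Ccl11 between D180 and D1 (-1.06).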

How the results depend on the processing

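Over the processing alternatives, 3 of the 6 genes were called at D30 under every setting, and at D180 the count was 3 except for 2 with slide as a fixed block and 4 with adjusted p alone or a fold of 1.5. Over all genes, slide and scan date as fixed blocks called 127 and 131 higher at D1, against 484 as reported. The count of the 6 genes at D1, 3 as reported, was 0 with either block. It was 2, without Ccl1, with normexp, no background correction, 75th percentile scaling, the deposited values, or slide or scan date as a random block, and 4 with adjusted p alone or a fold of 1.5. The count of changes that differed between D30 and D1, 1 as reported, was 2 with array weights and 0 with slide or scan date as a fixed block or scan date as a random block, and between D180 and D1, 2 as reported, it was 0 with slide or scan date as a fixed block and 1 with no filter, the median of the probes, array weights, or slide or scan date as a random block. With 1 rat left out, 3 genes were called at each time, between 1 and 2 changes differed between D30 and D1 (2 without exposed replicate 5 of D30), between 1 and 2 between D180 and D1 (1 in 26 of 36 fits, where the difference of Ccl11 was lost), and 0 between D180 and D30. The causes were not tested.

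Small changes turned direction. Ccl11 at D1 was -0.00468 with slide as a fixed block. Ccl24 at D1 was -0.00145 with 75th percentile scaling and -0.00142 with the deposited values, -0.23 and -0.162 with slide and scan date as fixed blocks, -0.000217 and -0.038 with them as random blocks, and -0.14 to 0.16 with 1 rat left out. Ccl24 at D30 was 0.179 and 0.0101 with slide and scan date as fixed blocks, and at D180 -0.12 with slide. Ccl20 at D30 was -0.0866 and -0.102 with slide and scan date as fixed blocks, and at D180 -0.15 to 0.22 with 1 rat left out.

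Replicate numbers did not pair the samples: over 18 pairs of equal number at the same time, deviations from the group means correlated from -0.13 to 0.22, with 6 over 0.1. With the replicate number as a block, 3 genes were called at each time, 1, 0, and 2 changes differed between times, and no call changed.

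Ccl1 in controls was not well above background, which limits its folds to approximate bounds. The 75th percentile scaling moved the median of all genes at D1 to -0.09, with 339 genes called higher and 576 lower against 484 and 252 as reported.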
